A study of Mus musculus with 8 samples.

Results

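The sites described here lay outside every annotated gene. They were the 1-base positions of the deposited site table that fell within no RefSeq gene span of the mouse mm10 genome, after the 124 mitochondrial rows were set aside. There were 559 such sites among 33774 in all, against 33091 sites inside at least 1 gene span. Of the 559, 540 lay on chromosomes and 19 on unplaced contigs, for which the gene table gave no distance. The gene table named none of these contigs, so the 19 sites counted as outside genes by default. It also held 17 genes of unknown sequence, and whether any lie on these contigs is not known.

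The study profiled N6-methyladenosine (m6A) by eCLIP in αTC1-6, an immortalized mouse line of glucagon-producing pancreatic alpha cells. Cells received scramble siRNA (SCR, numbers 1 and 2) or siRNA against Mettl14 (M14KD, numbers 3 and 4), and each number had an Input library and an IP library made with an anti-m6A antibody after UV crosslinking. This gave 4 groups of 2 libraries. All came from the 1 line, and the labels gave neither the time after transfection nor whether the numbers were separate cultures, so p-values measure the spread between these libraries, which may be technical.

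In m6A, a methyl group sits on an adenosine of the RNA itself. METTL14 pairs with the catalytic subunit METTL3 in the nuclear writer complex, which favours adenosines in sequences such as GGAC and is known for marks in the last exon and around the stop codon of messenger RNAs. In eCLIP the antibody is crosslinked to RNA and the ends of the cDNAs mark where it was bound, while the Input shows the same RNA without selection. Transcripts can begin before or run past the ends that an annotation gives them, and unannotated transcripts lie between genes. A site was placed here beside its nearest gene by position alone. The site table gave no strand, so the transcript each site came from is not known.

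The libraries held 3438530 to 3637740 counts in Input and 10207383 to 10918559 in IP. Sites outside genes were shallow: their median count was 14 to 16 in the Input libraries and 64 to 74 in the IP libraries, against 31 to 34 and 162 to 177 over all sites. Mettl14 had 2 sites of its own, with 35 and 24 Input counts in SCR against 20 and 10 in M14KD at the first, and 29 and 20 against 12 and 12 at the second. The M14KD libraries were the lower ones at both, with log2 fold changes of -0.91 ± 0.34 and -0.96 ± 0.36 (SE) in Input, but the adjusted p of 0.423 at each (edgeR) passed no threshold. Of 13 alpha cell marker genes 11 had sites, together 64056 to 75410 CPM in Input (CPM, the count scaled by the library's total over all sites). Of 9 beta cell markers 1 had a site, at 0 to 1.38 CPM, of 4 delta cell markers 1 had sites (Rbp4, 245 to 271 CPM), and none of the 2 PP cell or 7 other markers had one.

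Most sites outside genes lay close to one. The median distance to the nearest gene span was 500 bases, the quartiles were 92.75 and 2429.5 bases, and 142 sites lay within 100 bases. A distance under 1 kb was found for 334 sites, 1 to 5 kb for 91, 5 to 10 kb for 38, 10 to 50 kb for 66 and over 50 kb for 11. The site nearest to a gene lay 1 base before Smim26, a small membrane protein gene. The farthest lay 193783 bases from Gm32243 and held 1 count in a single IP library and 0 in the other 7.

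The strand of the nearest gene was listed for 362 of the 540 sites, which gives the side on which a site lay. There were 190 sites before a 5′ end, at a median of 114 bases and with 91 of them within 100 bases. The 172 sites beyond a 3′ end lay farther out, at a median of 1607 bases, with 10 within 100 bases. The other 178 sites, whose nearest gene had no listed strand, had a median distance of 540.5 bases. The nearest gene was protein-coding for 414 sites, a long noncoding RNA for 71 and a pseudogene for 50. The histogram of distances shows these sides apart.

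**Figure D1:**
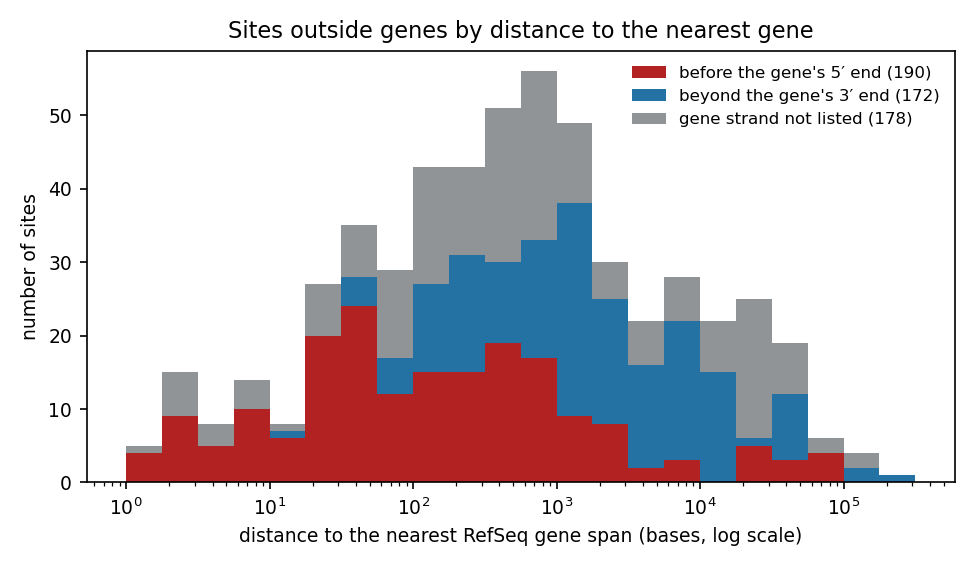
Number of sites outside genes (vertical axis) by distance in bases to the nearest RefSeq gene span (log scale), for the 540 sites on chromosomes, stacked by side. The 190 sites before a 5′ end (red) pile up at short distances, with 91 within 100 bases, while the 172 beyond a 3′ end (blue) have a median of 1607 bases.

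The stretches just before 5′ ends held 4 of the 5 highest IP levels (counting 1 site per run), and sequences are shown here for genes with such sites so that the site can be seen against the annotated start. Each line gives the 60 bases before the start, read 5′ to 3′ on the gene's strand, so that the last letter touches the gene. Capitals mark the bases at which the table has a site. Sequences and strands are from RefSeq, build GRCm38.p6. Tuba1a encodes an alpha-tubulin (chr15:98953502-98953561, minus strand), Snrpd3 a core protein of the spliceosomal Sm ring (chr10:75517982-75518041, plus strand) and Fmc1 an assembly factor of ATP synthase (chr6:38534801-38534860, plus strand). Psmc5 (chr11:106256125-106256184, plus strand) and Psmb5 (chr14:54617996-54618055, minus strand) encode proteasome subunits, Rps15a a ribosomal protein (chr7:118116148-118116207, minus strand) and Nme1 a nucleoside diphosphate kinase (chr11:93968273-93968332, minus strand).
Tuba1a: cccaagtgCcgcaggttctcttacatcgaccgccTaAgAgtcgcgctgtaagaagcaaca
Snrpd3: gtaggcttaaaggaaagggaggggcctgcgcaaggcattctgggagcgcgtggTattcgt
Fmc1: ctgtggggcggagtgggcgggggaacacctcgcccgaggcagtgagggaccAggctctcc
Psmc5: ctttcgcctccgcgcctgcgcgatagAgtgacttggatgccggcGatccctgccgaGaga
Psmb5: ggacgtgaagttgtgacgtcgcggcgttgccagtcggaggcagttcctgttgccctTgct
Rps15a: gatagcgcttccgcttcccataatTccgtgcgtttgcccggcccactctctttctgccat
Nme1: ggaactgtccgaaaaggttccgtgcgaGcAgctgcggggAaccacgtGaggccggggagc

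The capitals fall on all 4 bases. In all, 106 sites outside genes lay within a RefSeq promoter window (250 bases before to 50 after a start), in 83 windows. The site base, read on the gene's strand, was A at 39 of the 106 (36.8%), C at 27, G at 25 and T at 15. Over all bases of all promoter windows A made up 23.2%, and at the 714 sites inside genes that lay in such windows the site base was A in 34.0%. The base 5 positions after the site was C for 47.2% of the sites outside genes and for 46.9% of those inside. The sets differed at 4 positions after the site, where A made up 45.3% outside genes and 29.0% inside. These offsets were picked from those up to 5 bases on either side.

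GGAC and GGACT, forms of the m6A motif, were searched on both strands within 15 bases of a site; every GGACT match is also a GGAC match. GGAC was found beside 26 of the 102 sites outside genes whose surroundings lay wholly in a window (25.5%), against 29.6% of the sites inside genes. GGACT was found beside 6 of the 102 (5.88%), against 11.4%. Some sites lay in windows of both strands. Without these, GGAC was beside 26 of 84 sites outside genes (31.0%) and GGACT beside 6 of 84 (7.14%). The values inside genes were not restricted in this way. Of whole windows, GGACT was in 53.0% of the 83 that held a site outside a gene and in 45.5% of all windows. A match describes letters only.

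Sites outside genes also came in runs. Joining sites at most 1000 bases apart gave 320 runs, of which 231 were single sites. With gaps of at most 100 bases there were 387 runs, and 256 sites (45.8%) lay in runs of 2 or more. Runs with this gap were also drawn over the whole table. In those, 51.0% of the sites outside genes shared a run with another site, against 72.9% of the sites inside genes.

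The longest run, 30 sites over 2178 bases (chr7:6672030-6674207), began 237 bases beyond the 3′ end of Zim1, an imprinted zinc finger gene, and ended 2414 bases beyond it. Next came 16 sites 116 to 654 bases from Stk32a, a kinase gene, then 13 sites over 1558 bases (chr8:115683133-115684690) lying 18563 to 20120 bases from Maf, which encodes a bZIP transcription factor. Another 13 lay on contig JH584304, and 9 lay 5392 to 6243 bases beyond the 3′ end of Sesn3, a sestrin gene. A run before Ctdspl, a phosphatase gene, also had 9. The 5 runs with the most IP counts held 38.4% of all IP counts at sites outside genes.

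Summed over its 30 sites, the Zim1 run held 1238 and 886 CPM in the SCR IP libraries and 1400 and 1197 in the M14KD IP libraries. The second SCR library was the lowest and the groups overlapped, since the first SCR library lay between the M14KD libraries. In Input the sums were 555 and 424 CPM in SCR and 638 and 545 in M14KD, with the second SCR library again the lowest. The fitted IP log2 fold change was above 0 at all 30 sites, from 0.17 to 0.57, and passed the test at none.

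The Maf run held 277 and 292 IP CPM in SCR and 316 and 324 in M14KD, and 112 and 104 Input CPM in SCR against 142 and 117 in M14KD. Both M14KD libraries were higher in IP and in Input, and none of the 13 sites passed the test in either. Within the run the IP level was uneven, as the plot along the runs shows. At its highest site, 18862 bases from Maf, IP levels were 65.4, 69.5, 74.2 and 80.6 CPM in libraries 1 to 4, while Input was level at 8.52 to 9.31 CPM.

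**Figure D2:**
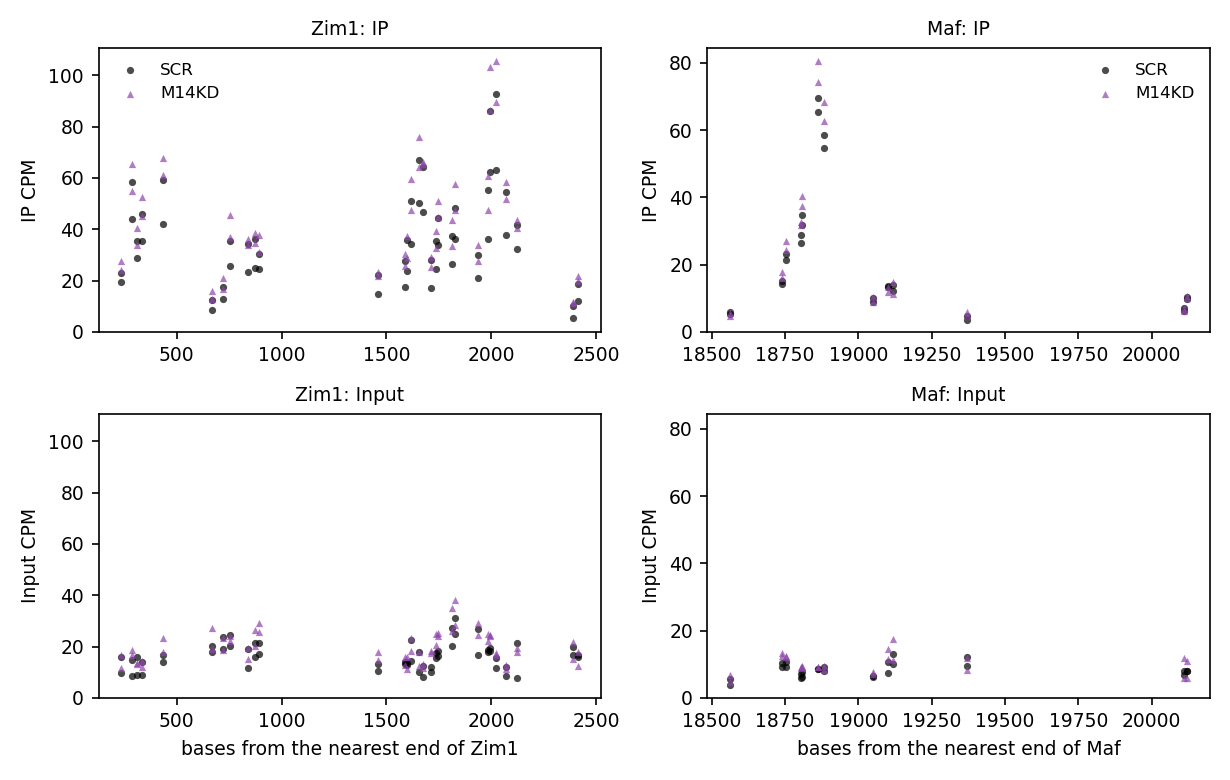
CPM in IP (upper row) and Input (lower row) at each site of the runs beside Zim1 (left) and Maf (right), against the distance in bases from the nearest gene end; each point is 1 library, SCR as black circles and M14KD as purple triangles. IP varied widely from site to site, up to 80.6 CPM in the Maf run where Input was 8.52 to 9.31.

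The next comparison asked whether the antibody enriched these sites over Input. Sites outside genes took 0.807%, 0.760%, 0.828% and 0.794% of the site counts in IP libraries 1 to 4 and 0.628%, 0.613%, 0.638% and 0.636% in the Input libraries. Every IP library was above every Input library, 0.797% ± 0.029 against 0.629% ± 0.011 (SD, n = 4 each; two-sided exact permutation test, p = 0.0286, the smallest that 4 against 4 allows; 0.0286 after Benjamini-Hochberg adjustment over 6 such tests). With Input and IP kept paired by number, exact sign flips gave p = 0.125, also the smallest possible. The direction depended on the scaling: relative to the TMM effective library size, which sets the bulk of sites level, the IP value was lower, at -0.184 percentage points against Input (exact permutation p = 0.0286).

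The direction also differed by position. By column totals, sites before a 5′ end took 0.249% ± 0.017 of IP counts and 0.285% ± 0.009 of Input counts, a ratio of 0.873, with every IP library below every Input library. Sites beyond a 3′ end took 0.261% ± 0.018 of IP and 0.147% ± 0.009 of Input, a ratio of 1.77. The Zim1 run alone held a large part of these counts, and the ratio without it was not computed. Sites over 10 kb from any gene had the ratio 2.09 (0.0593% against 0.0283%), and those on unplaced contigs 0.658 (0.0338% against 0.0514%). A large part of the counts over 10 kb from a gene came from the Maf run, and the ratio without this run was not computed. In each of these classes the 4 IP and 4 Input libraries did not overlap (exact permutation p = 0.0286). With libraries paired by number, exact sign flips could not give a p below 0.125 in any class. The classes share sites, since those before 5′ and beyond 3′ ends were taken at any distance. At 10 to 50 kb they held 8 and 25 sites, and at over 50 kb 4 and 3. Relative to the TMM effective library size the ratios were 0.531 before 5′ ends, 1.08 beyond 3′ ends, 1.27 over 10 kb from a gene and 0.400 on contigs. Beyond 3′ ends IP and Input then overlapped (exact permutation p = 0.171), while the other 3 classes kept their direction with no overlap (p = 0.0286 each by the same test).

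**Figure D3:**
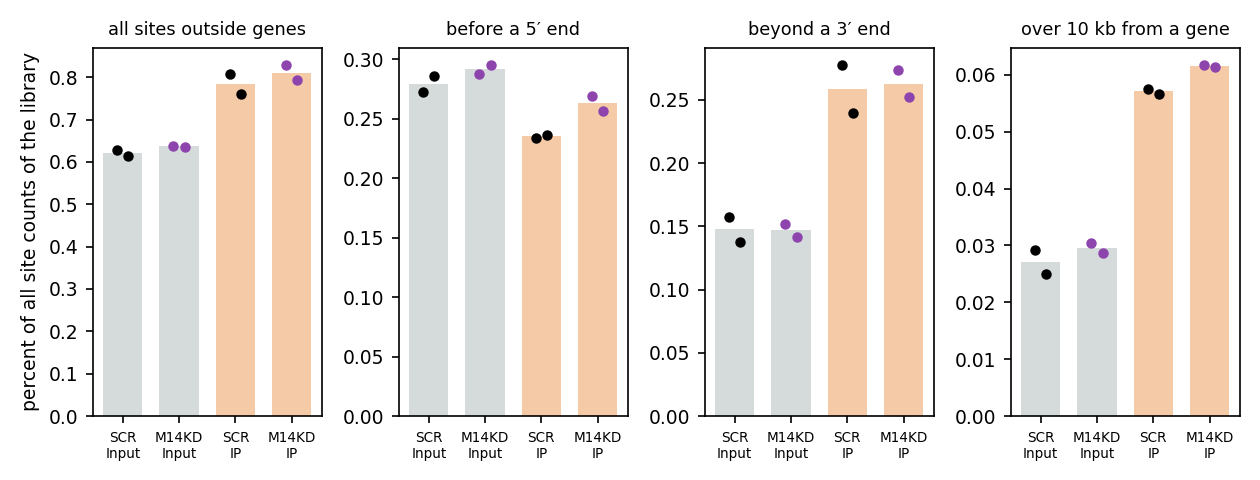
Percent of all site counts of each library that fell on sites outside genes, for all of them and for 3 positions, which share some sites. Bars are group means, points the 2 libraries of each group (SCR black, M14KD purple), Input grey and IP orange. By these column totals IP lies above Input for all sites, beyond 3′ ends and over 10 kb from a gene, and below Input before 5′ ends; with TMM effective sizes all sites together turn to below Input and those beyond 3′ ends overlap.

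Site by site, IP was tested against Input with edgeR's quasi-likelihood test over the whole table, at an adjusted p of 0.05. In SCR, 477 of the 559 sites were tested; 107 were higher in IP and 181 lower. Over all 33356 sites tested, 67.4% were called, 34.0% higher and 33.4% lower. In M14KD, 104 of 477 were higher and 166 lower, with 66.9% of all sites called, 33.8% higher and 33.1% lower. The median log2 IP over Input was -0.11 in SCR and -0.21 in M14KD, against 0.06 and 0.04 over all sites. Scaling by column totals alone, without TMM, moved the median of all sites in SCR from 0.06 to 0.77 and the split outside genes to 241 higher and 99 lower in SCR and 233 and 88 in M14KD. Values below are therefore read against the median of all sites.

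Sites before 5′ ends stood low. Within 1 kb before a 5′ end, 19 of 138 sites tested were higher in IP and 79 lower in SCR, with a median log2 IP over Input of -0.86. Within 100 bases it was 3 higher and 67 lower of 85, with a median of -1.23, which was 1.29 below that of all sites. The first 100 bases inside genes had nearly the same median, -1.18, with 11 higher and 463 lower of 554. Across the 69 runs with a site within 100 bases before a 5′ end, 61 had a median below 0.

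Beyond 3′ ends 50 of 151 sites tested were higher and 39 lower in SCR, with a median of 0.24. The last 1000 bases inside genes had a median of -0.21 (1894 higher and 2828 lower of 6574). Sites over 10 kb from a gene had 14 higher and 13 lower of 53, median 0.22; this was 0.16 above all sites, but 0.17 below them without replicate 2, and over its 19 runs the median was -0.14, with 8 above 0 and 11 below. On the contigs 15 of 19 were lower and 2 higher, median -1.36, and all 13 of the contig JH584304 run were lower. Column totals turned the median of all sites before 5′ ends from -0.56 to 0.16, while those within 100 bases (-0.52) and on contigs (-0.65) stayed below 0. The median of all sites in the table was then 0.77, so sites before 5′ ends still lay below it. Their difference from it was -0.67 to -0.37 over 12 settings. These classes were not tested against each other.

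**Figure D4:**
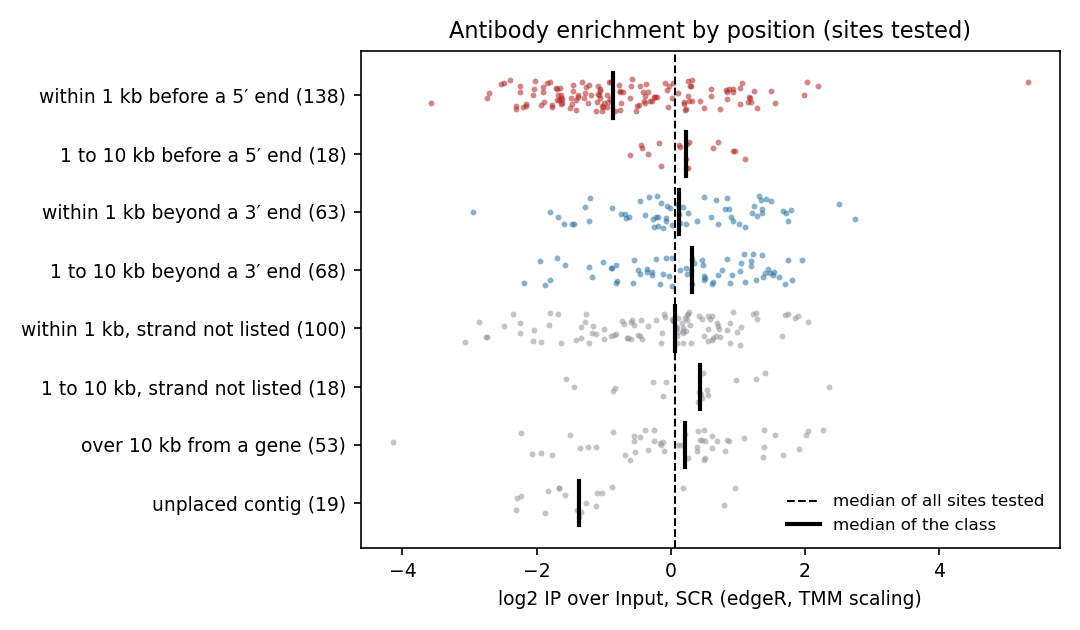
Log2 IP over Input in SCR (edgeR with TMM scaling, horizontal axis) for each tested site outside genes, by position relative to the nearest gene (tested sites in brackets); thick black bars are class medians and the dashed line is the median of all sites tested, 0.06. The class within 1 kb before a 5′ end (median -0.86) and the unplaced contigs (-1.36) lie left of the line.

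The highest IP levels outside genes were before Tuba1a and Snrpd3. The top Tuba1a site, 22 bases before the start, had 168, 174, 211 and 203 IP CPM and 196, 222, 202 and 237 Input CPM in libraries 1 to 4. Input and IP CPM overlapped there, and after TMM scaling IP was lower, with a log2 IP over Input of -0.80 ± 0.09 (SE) in M14KD (adjusted p 4.13e-09, edgeR). With column totals it was -0.08 ± 0.09 in M14KD (adjusted p 0.421, edgeR). In SCR both IP libraries lay below both Input libraries, and IP was lower under both scalings. The SCR log2 ratio with column totals was -0.29 ± 0.09 (adjusted p 0.00482), and with TMM the adjusted p was 3.09e-11 (both edgeR). The sites 24 and 26 bases before the Tuba1a start had nearly the same counts in each library as the top site. Sites so close may share reads, which was not tested. The Snrpd3 site, 7 bases before the start, had 175, 164, 234 and 184 IP CPM and 157, 158, 189 and 151 Input CPM, a log2 ratio of -0.61 ± 0.11 in SCR (adjusted p 8.91e-06). With column totals the direction turned, to 0.10 ± 0.11 (adjusted p 0.375).

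The site 11 bases before Plcb3, a phospholipase C gene, and 31 bases before its neighbour Ppp1r14b, had 100, 98.7, 94.1 and 104 IP CPM against 73.5, 83.0, 70.8 and 83.8 in Input. By CPM every IP library was the higher, and with column totals the log2 ratio in SCR was 0.35 ± 0.10 (adjusted p 0.00261), but with TMM it turned to -0.37 ± 0.10 (adjusted p 0.00211, both edgeR). The site 100 bases before Wnt4, which encodes a Wnt ligand, had 80.3, 91.8, 88.0 and 101 IP CPM and 81.8, 95.4, 84.1 and 92.2 Input CPM, with a log2 ratio in SCR of -0.76 ± 0.11 with TMM and -0.04 ± 0.10 with column totals. BC005537 went the other way under both scalings. At 72 bases from this gene, whose strand is not listed, IP was 141, 130, 126 and 131 CPM and Input 25.4, 14.6, 18.0 and 19.5, a log2 ratio of 2.05 ± 0.14 in SCR (adjusted p 2.52e-14), or 2.76 with column totals.

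Among sites higher in IP in SCR, the most marked was 392 bases before Rnpc3, a gene of the minor spliceosome. It had 212, 194, 226 and 197 IP counts and 0, 2, 4 and 8 Input counts in libraries 1 to 4. With 2 Input counts in SCR its fold rests on very few reads there; in M14KD the log2 IP over Input was 2.85 ± 0.32 (adjusted p 2.63e-09). A site 501 bases beyond H1f2, a linker histone gene, had 244, 245, 202 and 189 IP counts against 7, 8, 11 and 12 in Input, a log2 ratio of 2.74 ± 0.27 in SCR. The highest Maf site reached 2.26 ± 0.16.

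A site 374 bases before Taf1a, a gene of RNA polymerase I transcription, was also higher in SCR (2.20 ± 0.59), from 4 Input counts in all. In M14KD it was at 0.83 ± 0.45 (adjusted p 0.101). Among the largest ratios in M14KD, beside Rnpc3, were those at Gm40981 (2.73 ± 0.46) and Tmem203 (2.58 ± 0.48), both beyond a 3′ end. The site 2 bases from Gm11560 passed on 12 and 21 IP counts against 0 and 1 in Input, and the call was lost under DESeq2 (adjusted p 0.126), without replicate 3 (0.122) and without replicate 4 (0.0676).

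Among the sites named by rule (1 per run), the lowest ratios in SCR came from faint sites. The one near Gm31511 on chromosome Y, 132934 bases away, had 6 and 10 Input counts and 2 and 2 IP counts in SCR. The site 35 bases from Gm6085 had 21 and 14 Input against 7 and 13 IP counts, a log2 ratio of -3.06 ± 0.41, and that beyond Il6st, the gp130 receptor gene, 15 and 14 against 7 and 11 (-2.94 ± 0.44). Sites beside Mir3960 (-2.86 ± 0.76) and Gm18609 (-2.74 ± 0.55) were also low; the Mir3960 call was lost without replicate 2. In M14KD 2 deeper sites joined Gm31511, Gm6085 and Gm18609 among the 5 lowest named. Both were low in SCR too, with log2 ratios of -3.58 before Atp5j2 (adjusted p 8.83e-13, edgeR) and -2.25 near Maf. In SCR the Atp5j2 site was thus below the Gm6085 site, but the rule, which takes the lowest p of each run, did not name it there. The site 21 bases before Atp5j2, an ATP synthase subunit gene, had 46 and 52 Input against 17 and 12 IP counts (-4.01 ± 0.28). The one 911 bases from Maf had 77 and 78 against 36 and 40 (-3.30 ± 0.21).

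The nearest gene had a site of its own for 330 of the 540 sites (162 genes) and none for 210. Over the 142 runs measured in both, the median log2 IP over Input in SCR was -0.24 outside the gene and -0.45 inside it. Before 5′ ends the medians were -0.79 outside and -0.84 inside (70 runs), and beyond 3′ ends 0.10 and 0.17 (35 runs). Across the 142 runs the values had a Pearson r of 0.354 and a Spearman rho of 0.380. Before 5′ ends they were 0.389 and 0.400, and beyond 3′ ends 0.072 and 0.058. The values share libraries and depth, and this is a description across runs.

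The knockdown was then compared with the control in the IP libraries. Of 482 sites outside genes tested, 4 were lower in M14KD and 0 higher (edgeR, adjusted p 0.05). The background was 0.63% of all sites tested called, 0.255% higher and 0.375% lower, and 4 of 482 is 0.830%, near that background. At an unadjusted p of 0.05 there were 87 (18.0%), against 13.3% of all sites. DESeq2 called 0, but gave an adjusted p to only 51 of the 482, none of the 4 among them. Adjusted over all sites it also called 0, with 26 at an unadjusted p of 0.05. The median log2 fold change was 0.04 against 0.01 over all sites. In cultured bulk samples, a change in level cannot be told apart from a change in the number of cells that hold the RNA.

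All 4 sites that fell lay beyond a 3′ end. The one 105 bases beyond Slc2a5, a fructose transporter gene (chr4:150144273), had 109 and 105 IP counts in SCR and 56 and 59 in M14KD. Both M14KD libraries were lower, and edgeR put the site at -0.82 ± 0.18 on the log2 scale (SE; adjusted p 0.0435). Its Input counts were 10 and 9 against 6 and 7, too few to be tested.

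Beyond Tubb3, a beta-tubulin gene of neurons, 2 sites 19 bases apart fell. At chr8:123427947, 5932 bases past the end, the SCR libraries held 440 and 471 IP counts against 305 and 299 with the knockdown (-0.52 ± 0.10, adjusted p 0.0264). At chr8:123427966 they were 348 and 373 against 236 and 248 (-0.50 ± 0.11, adjusted p 0.0426). The M14KD libraries were lower in Input too at the first, 14 and 19 against 28 and 28 (-0.70 ± 0.32, adjusted p 0.529). All 6 sites of that run had IP fold changes below 0, from -0.52 to -0.34.

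The last was 147 bases beyond Sesn2, a stress-induced sestrin gene (chr4:132492657), with 334 and 341 IP counts in SCR and 238 and 217 in M14KD (-0.50 ± 0.11, adjusted p 0.0435). The other 4 sites of its run had values from -0.47 to -0.34 and did not pass; they lay within 51 bases and had near-equal counts. Leaving out a library changed the calls, while the folds moved less, from -0.88 to -0.76 at Slc2a5, -0.59 to -0.45 at the first Tubb3 site and -0.54 to -0.45 at Sesn2. Without replicate 1 there were 40 calls, 32 of them higher, and all 4 sites were among them; without replicate 2, 3 or 4 there were 5, 0 and 1, which kept 1, 0 and 0 of the 4. Keeping 1 site per 100 bases of the whole table removed 2 of the 4, and the 2 kept, at Slc2a5 and Tubb3, held their folds (-0.82 and -0.52) without passing. With TMM, the log2 IP over Input at Slc2a5 was 1.21 in SCR and 0.86 in M14KD. It was 1.74 and 1.92 at the first Tubb3 site, and -0.20 and -0.47 at Sesn2. The falls in IP were not called as changes in IP over Input at any of these sites.

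**Figure D5:**
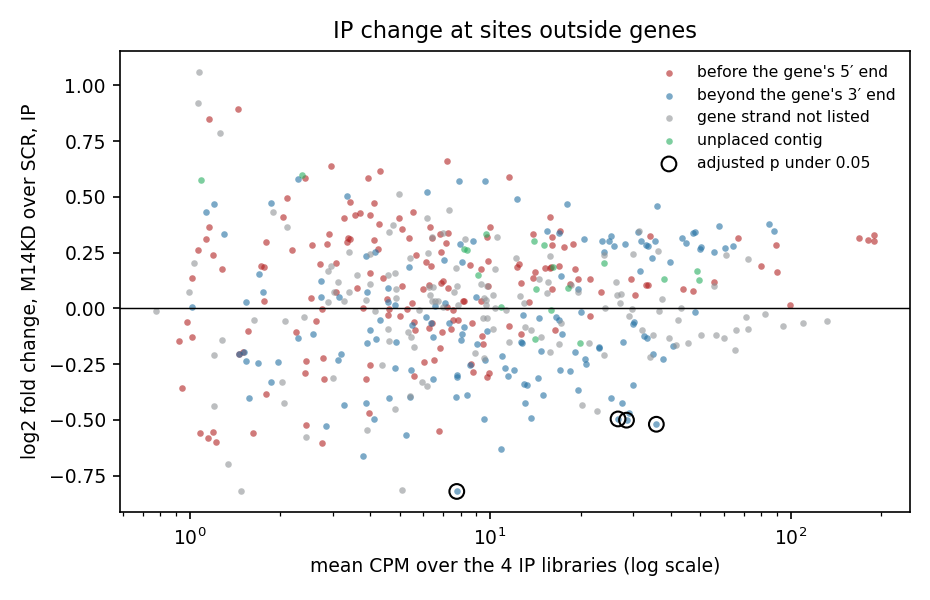
Log2 fold change of M14KD over SCR in IP (edgeR, vertical axis) against the mean CPM of the 4 IP libraries (log scale) for the 482 tested sites outside genes, coloured by side of the nearest gene. The 4 circled sites, with an adjusted p under 0.05, lie below 0 between -0.82 and -0.50, and all are beyond a 3′ end.

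The medians by position differed in sign. Within 100 bases before a 5′ end the median IP fold change was 0.17, with 64 of 86 sites above 0 and 0 called; in the first 100 bases inside genes it was 0.15, with 447 of 551 above 0 and 13 called, all higher. In Input the median within 100 bases before a 5′ end was 0.09 (46 of 71 above 0). The 3 most abundant Tuba1a sites lay at 0.30 to 0.32 in IP, Snrpd3 at 0.33 ± 0.10 (adjusted p 0.124) and Rps15a at 0.33; none passed.

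Beyond 3′ ends the median was -0.07, with 64 above 0 and 89 below. At 5 to 10 kb from a gene it was -0.27, with 28 of 30 tested sites and the medians of 11 of 12 runs below 0; 6 of the 30 were the Tubb3 run and 9 the Sesn3 run. At 10 to 50 kb it was 0.15, with 33 of 45 above 0, and the Maf run supplied 13 of the 45. On contigs it was 0.17 (16 of 19 above 0). No class was tested against another.

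In Input, 338 sites outside genes were tested and 0 were called by edgeR, with 34 at an unadjusted p of 0.05 (10.1%, against 8.69% of all sites). DESeq2 also called 0, both among the 16 to which it gave an adjusted p and when adjusted over all sites, with 1 at an unadjusted p of 0.05. The background was 0.0929% of all sites tested, 0.0697% higher and 0.0232% lower. The lowest p belonged to a Zim1 site 1715 bases beyond the gene, with 12.2 and 9.9 CPM in SCR and 17.4 and 18.3 in M14KD (0.71 ± 0.22, adjusted p 0.298, edgeR). A Ctdspl site had 23 and 26 counts in SCR and 9 and 12 in M14KD (-1.15 ± 0.36, adjusted p 0.332), and a Tubb3 site 38 and 40 against 14 and 26 (-0.90 ± 0.29, adjusted p 0.362). Both M14KD libraries were on one side of both SCR libraries at each of these 3 sites. The sites were picked for the lowest p, which favours such a split, so it is no further evidence of a change.

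The difference between M14KD and SCR in IP over Input, tested as an interaction, was called at 0 of 477 sites outside genes by edgeR and by DESeq2, with 20 at an unadjusted p of 0.05 in edgeR (4.19%, against 3.72% of all sites) and 5 in DESeq2; the background was 0.0% of all sites. The median was 0.02 with a median SE of 0.39, so only large differences could have been seen at this depth. The lowest p was 911 bases from Maf, where IP held 78 and 63 counts in SCR against 36 and 40 with the knockdown while Input was level at 72, 66, 77 and 78 (-1.05 ± 0.28, unadjusted p 0.000749). Next were sites 45644 bases beyond Opa1, a gene of mitochondrial fusion (-1.50 ± 0.50), and before Ctdspl (1.18 ± 0.40), where the Input counts moved and IP counts lay between 34 and 47 at Opa1 and between 84 and 90 at Ctdspl. None passed the adjusted threshold.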

How the data were processed

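The series holds 8 m6A-eCLIP libraries in 1 table of raw read counts per 1-base site, deposited by the authors; the submitters' processing notes list mm10, STAR, cutadapt and UMI-tools. Not given in the sources used here: tool versions, the rule that selected sites and the window counted per site. No column was left unused.

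Sites were placed against 49997 RefSeq gene spans (GRCm38.p6); strand came from the promoter table (27025 genes). No genome sequence was used here, so motifs were searched in promoter windows only, a choice made after the data were seen. Counts were tested with edgeR 4.0.16 (R 4.3.3, filterByExpr, TMM, quasi-likelihood) over the whole table, after checks on simulated data. Benjamini-Hochberg adjustment was used at 0.05. DESeq2 1.42.0 (with and, added later, without its independent filtering), other scalings, filters, left-out replicates and thinned sites were alternatives. SCR and M14KD were fitted by library kind; IP over Input and the interaction used all 8 libraries. CPM is scaled to each library's total over all sites.

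Replicate numbers pair IP with Input. Deviations of same-numbered libraries from their group means (log2 CPM, prior count 2) correlated at 0.189 (numbers 1 and 2) and 0.108 (3 and 4). With 2 libraries a group these are 2 independent values. M14KD and SCR share no number. Counts of replicate libraries differed beyond sampling noise (chi-square per degree of freedom 1.35 to 2.55).

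Named by rule were, per comparison, the 5 largest changes each way past the threshold with no overlap of libraries, 1 per run (or the 3 lowest p); the 5 longest runs; the 5 highest IP levels; and the nearest and farthest sites; 1 site that this rule names is not reported here. The second Tubb3 site, the genes with printed sequences and Rps15a were chosen after their values were seen. Sites and marker lists were chosen with earlier results of these data known.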

Additional observations from a re-analysis of the deposited data

How the results depend on the processing

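In IP, M14KD against SCR, the 4 calls became 0 under DESeq2, which gave none of the 4 an adjusted p, 0 under DESeq2 without independent filtering (added after seeing the data), 0 with 1 site per 100 bases, which removed 2 of them, and 0 to 40 when each replicate was left out; none of the 4 is among the 52 sites over 10 kb from a gene, where 0 were called. The same comparison in Input gave 0 to 1. IP over Input in SCR gave 155 calls with 1 site per 100 bases, 27 over 10 kb from a gene and 522 when all sites outside protein-coding genes were taken, in place of 288; M14KD gave 140, 28 and 512 in place of 270. These 3 settings change the number of sites tested. With column totals only, 27 of the 288 SCR calls and 24 of the 270 M14KD calls turned their sign. The replicate block kept all 288 and all 270 calls, added 12 to each (300 and 282), and left the interaction at 0; it was fitted for these comparisons and the share only. The IP minus Input share was 0.168 percentage points with the replicate block (p 0.125) and 0.161 to 0.176 with a replicate left out (exact p 0.1, the smallest 3 against 3 allows). Per TMM effective library size, an alternative chosen after seeing the data, it reversed to -0.184, and beyond 3′ ends it passed no test. Leaving out contig sites, also added later, kept the 4 IP calls. With 2 libraries a group, a left-out replicate leaves 1, assumed to vary like the others. Depth limits the faint sites: 31 had 0 counts in all 4 Input libraries and 70 in at least 1.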
